A study of Mus musculus with 14 samples.

Results

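The genes described here are Mcpt8, Prss34, Cpa3, Fcer1a, Ms4a2, Gata2, Kit and Cd34, a set of 8 chosen by name as genes of basophils, mast cells and blood progenitors, out of 24091 genes counted in sorted spleen T cells. The set was named without a threshold on these measurements, but with earlier results of these data known. Its shares of called genes are therefore descriptions, and no test was run over the set. All 8 were found in the count table under the symbol itself. Of these, 5 (Mcpt8, Prss34, Cpa3, Gata2 and Kit) had enough reads to pass the filter on low counts, and 3 (Fcer1a, Ms4a2 and Cd34) did not, so the latter were read from a fit that kept every gene with at least 1 read.

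T cells were sorted from the spleens of 8 CP CML mice, which were Mir142+/+BCR-ABL, and 6 BC CML mice, which were Mir142-/-BCR-ABL, and each mouse gave 1 library of mRNA from 200000 cells. CP and BC stand for the chronic phase and the blast crisis of chronic myeloid leukemia (CML), and the BC CML mice lacked Mir142 in every cell, leukemic cells included. Both groups carried the SCLtTA and BCR-ABL transgenes on the CD45.2 C57Bl/6j background, were 6 to 10 weeks old males and females with no drug treatment, and had BCR-ABL switched on for 3 weeks by taking away tetracycline. The SCL (Tal1) element that drives the transactivator is active in blood stem and progenitor cells, so the transgene is a model of leukemia arising in progenitors and not one aimed at T cells. In the library names all CP CML mice carry one prefix number and all BC CML mice another, and what these numbers mean is not stated, so that anything they mark cannot be told apart from genotype. The labels give mice rather than repeat libraries, and the libraries of a group differed by more than sampling noise.

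Basophils and mast cells are granulocytes that carry the high-affinity IgE receptor and store proteases and histamine in granules, and both arise from marrow progenitors under the control of GATA2. KIT, the receptor of stem cell factor, is carried by blood stem and progenitor cells and is kept for life by mast cells, whereas mature basophils largely lose it. CD34 marks early progenitors and is also found on some mast cells and endothelium. Proteases of these granules are not characteristic of mature T cells. In a bulk library a gene's level mixes how many cells express it with how much RNA each holds, which cannot be told apart here.

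The deleted gene encodes a hairpin on chromosome 11 that gives 2 mature microRNAs, printed here from RefSeq (GRCm38.p6) because the groups differ by them. The seed, bases 2 to 8, is in capitals.
mmu-miR-142a-5p: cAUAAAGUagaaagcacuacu
mmu-miR-142a-3p: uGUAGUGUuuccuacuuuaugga
The 5p strand lies at chr11:87756867-87756887 and the 3p strand at chr11:87756903-87756925, both on the plus strand. The match to the 3p seed, ACACTAC, was found in none of the longest 3′UTRs of the 8 genes (GENCODE vM21, the same genome build as mm10). The match to the 5p seed is ACTTTAT, and its places are given for Cd34 alone, whose 3′UTR held it at 2. The sites are shown with their flanks, the 7 matching bases in capitals.
Cd34 3′UTR, bases 120 to 126: cagataatgctACTTTATttctatactgtc
Cd34 3′UTR, bases 711 to 717: cttcttcccctACTTTATggaaaccaaggt
On the genome these matches lie at chr1:194959914-194959920 and chr1:194960505-194960511, both on the plus strand, and neither is followed by the A that completes an 8-base site. Among 3′UTRs of 0.8 to 1.25 times the length, which was 1485 bases for Cd34, ACTTTAT was present in 15.6%. Over all 19796 genes with a 3′UTR, 14.8% held this word and 6.23% held the 3p word.

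GATA2 binds the word GATA in the regulatory DNA of mast cell and basophil genes. The promoters (250 bases before to 50 after the start, RefSeq, GRCm38.p6) were searched on both strands for 4 words that hold it, which were AGATAA, its relative ending in G (AGATAG), its relative starting with T (TGATAA), and the word with both changes (TGATAG). The 8 genes have 10 promoters in the table, of which 5 held at least 1 word (1 each of Prss34, Cpa3, Fcer1a, Ms4a2 and Cd34), against 29.8% of all 32851 promoters. Those of Mcpt8, Gata2 and Kit, of which the last pair have 2 each, held none. Those of Cpa3, Ms4a2 and Cd34, genes that tended to be high in the same libraries, and that of Kit, which had the most reads, are shown with the words in capitals.
Cpa3, chr3:20242132-20242431, minus strand: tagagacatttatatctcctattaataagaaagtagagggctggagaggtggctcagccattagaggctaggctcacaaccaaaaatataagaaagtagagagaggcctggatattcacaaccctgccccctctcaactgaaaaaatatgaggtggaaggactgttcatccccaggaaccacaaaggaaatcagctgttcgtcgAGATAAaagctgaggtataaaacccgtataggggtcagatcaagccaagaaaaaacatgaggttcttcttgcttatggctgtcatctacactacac
Ms4a2, chr19:11623670-11623969, minus strand: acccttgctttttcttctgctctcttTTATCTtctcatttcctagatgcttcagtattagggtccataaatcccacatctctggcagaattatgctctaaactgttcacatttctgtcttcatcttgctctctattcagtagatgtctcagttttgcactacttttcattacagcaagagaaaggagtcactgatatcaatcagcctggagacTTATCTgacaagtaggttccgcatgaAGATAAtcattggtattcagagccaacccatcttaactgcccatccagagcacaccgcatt
Cd34, chr1:194938571-194938870, plus strand: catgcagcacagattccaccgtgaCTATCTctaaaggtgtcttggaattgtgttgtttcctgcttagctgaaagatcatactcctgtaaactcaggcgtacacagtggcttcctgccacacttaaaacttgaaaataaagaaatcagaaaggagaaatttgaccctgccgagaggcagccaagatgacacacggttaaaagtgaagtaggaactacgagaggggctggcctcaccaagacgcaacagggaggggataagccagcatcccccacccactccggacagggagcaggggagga
Kit, chr5:75574737-75575036, plus strand: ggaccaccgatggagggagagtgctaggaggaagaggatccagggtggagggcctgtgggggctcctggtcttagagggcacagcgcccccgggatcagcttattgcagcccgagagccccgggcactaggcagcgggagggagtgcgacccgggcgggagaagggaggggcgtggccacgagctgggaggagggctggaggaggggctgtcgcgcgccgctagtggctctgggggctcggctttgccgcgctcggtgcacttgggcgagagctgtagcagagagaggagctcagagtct
The Cpa3 promoter held 1 word, that of Ms4a2 held 3 and that of Cd34 held 1, and a word in this window is a match of letters, not a measured binding site. The Kit promoter was rich in G and C (69.0% of bases, against a median of 52.7% over all promoters).

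The depth was 15703702 to 19914531 reads per library, so that 1 CPM (reads per 1000000 counted) was worth 15.7 reads in the smallest library and 19.96 in the largest. Mir142 had 302 to 650 reads in the CP CML libraries and 0 in the BC CML libraries, as labelled. T cell identity genes were abundant in both groups: Cd3e had 404 ± 25.6 CPM (SD, n = 8) in CP CML and 410 ± 18.1 (n = 6) in BC CML, and the 13 listed T cell genes in the table summed to 5202 to 6025 CPM and 6568 to 7213 CPM. Of the 12248 genes that passed the filter, edgeR's quasi-likelihood test called 7986, or 65.2%, at a Benjamini-Hochberg adjusted p under 0.05, with 3987 (32.6%) higher and 3999 (32.7%) lower in BC CML. A call for a single gene is therefore common in this comparison, and the size of the change and the overlap of the libraries are given for each gene.

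Kit and Cpa3 rose in BC CML among the 5 genes that passed the filter, and Mcpt8, Prss34 and Gata2 were not called; 2 of 5 higher is read against the 32.6% of all tested genes called higher. In the fit without the filter, Kit, Cpa3, Fcer1a and Cd34 were called higher, 4 of 8 against 26.0% of the 17599 genes with a read (49.5% were called in either direction), and none was called lower. The groups did not overlap for 2 of the 8 genes, Kit and Cd34, against 26.8% of genes with a read and 36.9% of genes that passed the filter. Every BC CML library stood above every CP CML library in 14.3% of genes with a read and in 19.3% of those that passed. Except for Kit, the levels were low in all groups, with 5 of the 8 averaging under 1 CPM in both.

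**Figure D1:**
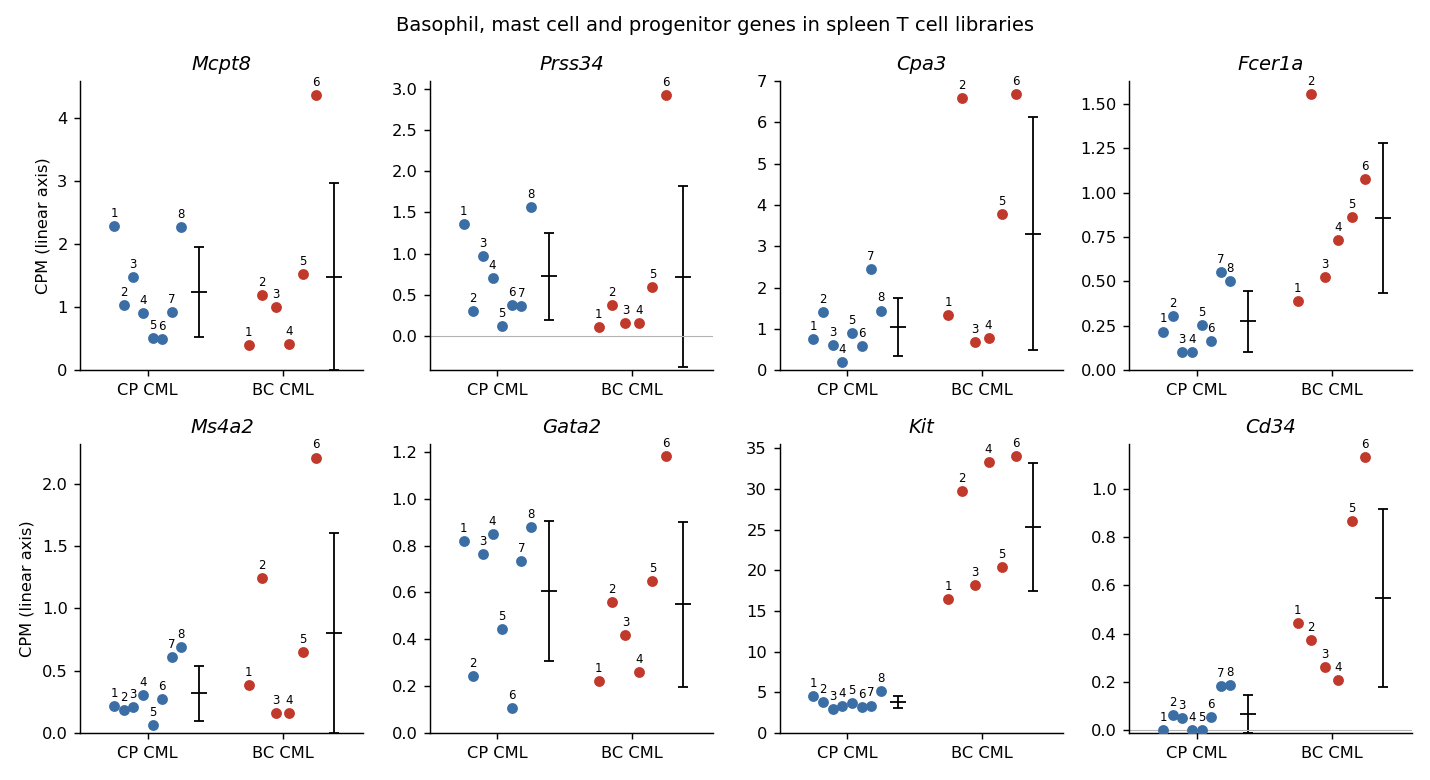
Normalised level (CPM, linear axes that differ between panels) of each gene in the 8 CP CML (blue) and 6 BC CML (red) libraries, numbered by mouse, with the mean and SD beside each group in black. Kit and Cd34 separate the groups, whereas for Mcpt8 and Prss34 a single BC CML library, number 6, stands above all others.

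Kit, on the plus strand of chromosome 5 (75574987 to 75656721, mm10), was the most changed of the genes that passed the filter. It had 2.96 CPM in the lowest CP CML library, 3.53 at the median and 5.15 in the highest, and 16.5, 25.1 and 34.0 CPM in BC CML, from 55 to 83 reads and 298 to 662 reads respectively. The lowest BC CML library (number 1) was therefore above the highest CP CML library (number 8), and within BC CML numbers 2, 4 and 6 formed the upper part of the range. The means were 3.77 ± 0.734 CPM (SD, n = 8) and 25.4 ± 7.88 CPM (n = 6), a log2 fold change of 2.75 (SE 0.18, adjusted p = 1.82e-09). Only 1.22% of the tested genes rose by more. Leaving out any 1 library kept the change between 2.65 and 2.85.

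The ligand of KIT, stem cell factor (Kitl), is made mostly by stromal cells, and it too was higher in BC CML, with 0.965 ± 0.236 CPM (n = 8) against 3.24 ± 0.220 CPM (n = 6), a log2 fold change of 1.74 (adjusted p = 3.52e-08) and no overlap. Of the 17 tested genes of the KIT ligand and signalling list, 7 were higher, 5 were lower and 5 were not called, with a median log2 fold change of 0.06 against -0.01 for all tested genes. The remaining listed gene, Sh2b2, was called higher in the fit without the filter (40 and 112 reads over the groups, adjusted p = 0.000881). Lyn, a Src family kinase used by KIT and by the IgE receptor, rose by 1.24 (adjusted p = 1.15e-05). Stat5b, a transcription factor downstream of KIT, fell by 0.47 (adjusted p = 4.30e-08), and Pik3r1, a regulatory subunit of PI3 kinase, fell by 0.39 (adjusted p = 6.01e-06).

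Fcer1a encodes the IgE-binding chain of the high-affinity IgE receptor and lies on the minus strand of chromosome 1 (173221271 to 173227229). The CP CML libraries held 2 to 9 reads, with 0.100 CPM in the lowest, 0.236 at the median and 0.551 in the highest, and the BC CML libraries held 7 to 25 reads, with 0.388, 0.799 and 1.56 CPM. The groups overlapped, with 4 of the 6 BC CML libraries (numbers 2, 4, 5 and 6) above the highest CP CML library and all 6 above the CP CML median. In the fit without the filter the log2 fold change was 1.65 (SE 0.39, adjusted p = 0.00113), and it remained called with each library left out (1.40 to 1.87).

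Ms4a2, on the minus strand of chromosome 19 (11615521 to 11623719), encodes the beta chain that amplifies the signal of the same receptor. It had 0.0636, 0.244 and 0.691 CPM at the lowest, median and highest CP CML library (1 to 11 reads) and 0.157, 0.519 and 2.21 CPM in BC CML (3 to 43 reads). The groups overlapped widely, with numbers 2 and 6 above all CP CML libraries and numbers 3 and 4 under the CP CML median. Its log2 fold change of 1.33 (SE 0.57, adjusted p = 0.0632, no filter) did not pass the quasi-likelihood test but did pass edgeR's likelihood ratio test (adjusted p = 0.0469) and DESeq2 (adjusted p = 0.0482). With a library left out it was called in 4 of 14 fits (without CP CML number 7 or 8, or BC CML number 3 or 4), and without BC CML number 6 it was 0.65.

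The gamma chain of the receptor, Fcer1g, which is shared with other Fc receptors and is carried by many myeloid and NK cells, was far more abundant. It went from 8.02 ± 1.33 CPM (n = 8) to 27.0 ± 7.75 CPM (n = 6), a log2 fold change of 1.75 (adjusted p = 6.32e-08) with no overlap. Of the 14 IgE receptor signalling genes, all tested, 10 were higher, 1 was lower and 3 were not called, with a median log2 fold change of 1.10. Plcg2, the phospholipase of B cells and myeloid cells, rose by 1.46 (adjusted p = 1.54e-06), and Plcg1, the phospholipase used by T cells, fell by 0.24 (adjusted p = 0.00146). Several of these genes serve B cells, NK cells and monocytes as well.

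Cpa3 encodes mast cell carboxypeptidase A, which is also made by basophils and by their progenitors, and lies on the minus strand of chromosome 3 (20215616 to 20242181). It had 0.200, 0.827 and 2.45 CPM at the lowest, median and highest CP CML library and 0.682, 2.56 and 6.68 CPM in BC CML, from 4 to 40 reads and 13 to 130 reads. BC CML numbers 2, 5 and 6 stood above every CP CML library, while numbers 1, 3 and 4 lay within the CP CML range. The means were 1.05 ± 0.704 CPM (n = 8) and 3.31 ± 2.82 CPM (n = 6), with a log2 fold change of 1.68 (SE 0.58, adjusted p = 0.0194). The call was lost without BC CML number 2 (1.37, adjusted p = 0.0567) and without number 6 (1.34, adjusted p = 0.0604).

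Mcpt8, the protease of basophil granules, lies on the minus strand of chromosome 14 (56082164 to 56085197). It had 0.486, 0.978 and 2.29 CPM in CP CML and 0.388, 1.09 and 4.37 CPM in BC CML at the lowest, median and highest library (8 to 42 and 7 to 85 reads). The groups overlapped almost entirely, and number 6 was the only BC CML library above the highest CP CML library. The log2 fold change was 0.27 (SE 0.51, adjusted p = 0.662), and without number 6 it was -0.46 (adjusted p = 0.354). A small RNA gene, Snord58b, overlaps Mcpt8 on the opposite strand, with means of 1.25 CPM in CP CML and 1.36 CPM in BC CML. Whether counting used strand is not given in the sources used here, so that reads of Mcpt8 and Snord58b cannot be told apart. The same limit holds for the level of Mcpt8 per kb, given below.

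Prss34, another basophil protease, on the plus strand of chromosome 17 (25298394 to 25300161), behaved alike across libraries. It had 0.127, 0.540 and 1.57 CPM in CP CML and 0.111, 0.265 and 2.93 CPM in BC CML (2 to 25 and 2 to 57 reads). Of the BC CML libraries, 5 lay under 0.6 CPM and number 6 was above every CP CML library. The log2 fold change was 0.01 (SE 0.69, adjusted p = 0.990), but without number 6 it was -1.37 (adjusted p = 0.0429), and the sign of this near-zero change also turned without CP CML number 2, 5, 6 or 7 (-0.14 to -0.08).

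Most other genes of the granule protease list were scarce, but Gzmb and Srgn were abundant. Of 12 listed genes, 3 passed the filter and all 3 were higher. Ctsg, cathepsin G of neutrophil precursors and mast cells, which is also in the immature granulocyte list, rose by 2.99 (adjusted p = 0.00171), from a mean of 0.582 to 4.54 CPM. Gzmb, a granzyme of cytotoxic T and NK cells, rose by 2.46 (adjusted p = 4.53e-07), from 48.8 to 268 CPM. Srgn, the granule proteoglycan of many blood cells, rose by 0.25 (adjusted p = 0.000116), from 280 to 334 CPM. The other 9, proteases that define tissue mast cells, stayed under 1 CPM in every library, and Mcpt9 and Cma2 had no read in any. In the fit without the filter 4 of them were called higher in BC CML, all with overlapping groups: Mcpt1 (1 read over all CP CML libraries and 31 over all BC CML libraries, 19 of them in a single one, adjusted p = 0.000638), Mcpt4 (14 and 41 reads, adjusted p = 0.0123), Tpsg1 (0 and 10 reads, adjusted p = 0.00810) and Tpsb2 (2 and 11 reads, adjusted p = 0.0432). Mcpt2 (3 and 13 reads, adjusted p = 0.0509), Tpsab1 (0 and 4 reads, adjusted p = 0.0773) and Cma1 (25 and 34 reads, adjusted p = 0.273) did not pass. Among the histamine and lipid mediator genes, 5 of 6 tested were higher and none was lower, with a median log2 fold change of 1.37. Alox5ap (5-lipoxygenase activating protein) rose by 2.22 (adjusted p = 5.71e-05) and Alox5 by 1.62 (adjusted p = 0.000682). Without the filter Ltc4s (3 and 28 reads, adjusted p = 0.000209), Ptgs2 (7 and 33 reads, adjusted p = 0.00179) and Slc18a2 (37 and 76 reads, adjusted p = 0.00652) were called higher too. Of 9 listed type 2 and related cytokines (Il6 and Il3 among them), 2 passed the filter and neither was called by the quasi-likelihood test. Il9 had no read in any library, and none of the others was called without the filter.

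Gata2, on the plus strand of chromosome 6 (88193891 to 88207032), encodes the transcription factor of stem cells, mast cells and basophils. It had 0.108, 0.750 and 0.880 CPM in CP CML and 0.222, 0.490 and 1.18 CPM in BC CML at the lowest, median and highest library (2 to 17 and 4 to 23 reads). The BC CML libraries lay within the CP CML range, except number 6, which was above it. The log2 fold change was -0.14 (SE 0.42, adjusted p = 0.781). Of the 14 tested partners of GATA2 and members of the haematopoietic factor complex, 9 were higher, 3 were lower and 2 were not called. Their median log2 fold change was 0.28 against -0.01 for all tested genes, of which 32.6% were called higher and 32.7% lower. Lmo2, the bridging subunit of that complex, rose by 1.96 (adjusted p = 1.67e-05) and its corepressor Cbfa2t3 by 1.62 (adjusted p = 0.00193), whereas Runx1 fell by 0.61 (adjusted p = 2.36e-06) and its partner Cbfb by 0.32 (adjusted p = 1.22e-05).

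Among the 13 transcription factors listed for basophils and mast cells, 8 were higher, 2 were lower and 3 were not called, with a median log2 fold change of 0.62. Of all tested genes, 32.6% were called higher and 32.7% lower. Spi1 (PU.1 of myeloid and B cells) rose by 1.87 (adjusted p = 2.63e-05) and Bhlhe40, which activated T cells also use, by 1.83 (adjusted p = 8.57e-09), while Runx1 and Stat5b were the 2 that fell. Of the 15 tested surface receptors of the list, 12 were higher and 3 were lower, with a median log2 fold change of 1.12. The prostaglandin receptor Ptger3 rose by 3.01 (adjusted p = 1.64e-07) and the granule tetraspanin Cd63 by 2.88 (adjusted p = 5.56e-08). Cd200r3, a receptor of basophils and mast cells, fell by 1.01 (adjusted p = 0.00943), from 1.47 ± 0.391 CPM to 0.733 ± 0.404 CPM, and Il3ra, the IL-3 receptor chain of basophils, fell by 0.47 (adjusted p = 0.000907). The mast cell receptors Mrgprb1 and Mrgprb2 had no read in any library.

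**Figure D2:**
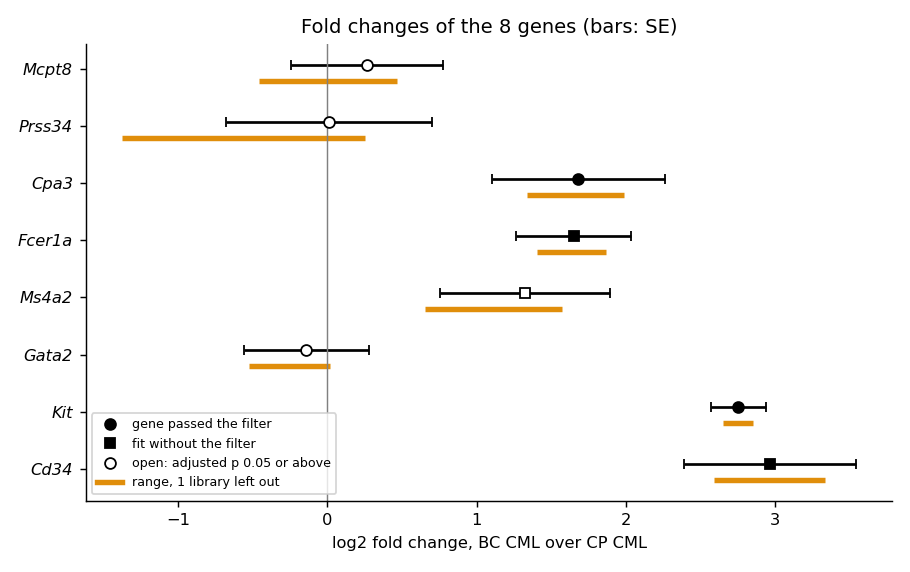
Log2 fold change of BC CML over CP CML with its SE for each gene, as circles where the gene passed the filter and squares where it came from the fit without it, filled where the adjusted p was under 0.05. Orange bars give the range with each of the 14 libraries left out in turn, which crosses 0 for Mcpt8, Prss34 and Gata2 and stays between 2.65 and 2.85 for Kit.

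Cd34, on the plus strand of chromosome 1 (194938821 to 194961292), was nearly absent from CP CML. The CP CML libraries held 0 to 3 reads and the BC CML libraries 4 to 22, that is 0, 0.0525 and 0.189 CPM against 0.209, 0.409 and 1.13 CPM at the lowest, median and highest library. Every BC CML library stood above every CP CML library, numbers 5 and 6 being the highest. The log2 fold change without the filter was 2.96 (SE 0.58, adjusted p = 0.000174), and it was 2.59 to 3.34 with each library left out. The 9 reads of all CP CML libraries and 61 of all BC CML libraries gave a ratio of 8.65 with an exact 95% interval of 4.27 to 19.8, which covers counting error only. An antisense gene, Gm16897, overlaps Cd34. Whether counting used strand is not given in the sources used here, so that reads of the pair cannot be told apart.

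Of 35 other blood stem and progenitor genes, 26 were tested, 17 were higher, 1 was lower and 8 were not called, with a median log2 fold change of 0.75 against -0.01 for all tested genes. Hoxa9, a homeobox factor of progenitors and myeloid leukemia, had no read in any CP CML library and 44 to 112 in each BC CML library, at least 185-fold higher against a floor of 3 reads over the whole CP CML group. Hoxa7 rose by 3.81 (adjusted p = 1.87e-12), from 0.572 ± 0.183 CPM to 8.13 ± 0.906 CPM with no overlap. Runx1 was the gene that fell. Of the 9 genes below the filter, Hoxa10 (1 and 56 reads), Procr (1 and 16), Angpt1 (23 and 50) and Mycn (6 and 16) were called higher without it, with adjusted p from 3.51e-07 to 0.0246, and the other 5 were not called.

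When counts were divided by gene length, which allows levels of different genes to be set side by side, Mcpt8 had the highest mean level in CP CML (1.34 CPM per kb), followed by Cpa3 (0.725), Kit (0.671) and Prss34 (0.597), and neighbours in this order differed by less than the SD between mice of the more variable gene. In BC CML, Kit was first (4.52 CPM per kb), followed by Cpa3 (2.30) and Mcpt8 (1.61), the last pair being within that SD. Cd34 was lowest in CP CML (0.0258). In BC CML, Gata2 (0.164) and Cd34 (0.210) were lowest and also differed by less than that SD. The spread between mice also differed by gene: the coefficient of variation of Kit was 19.5% in CP CML and 31.1% in BC CML, against 57.8% for Mcpt8 in CP CML and 152% for Prss34 in BC CML.

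Within BC CML, 7 of the 8 genes were highest in library number 6, and the exception was Fcer1a, which was highest in number 2. After each group's mean was taken off the log2 CPM, Mcpt8 and Prss34 varied most alike over the 14 libraries (r = 0.921), followed by Cpa3 with Fcer1a (r = 0.836), Mcpt8 with Gata2 (r = 0.80) and Ms4a2 with Cd34 (r = 0.79). Kit went least with Cd34 (r = 0.141). In BC CML number 4, Kit was at 33.3 CPM, next to the highest, while Cpa3 was at 0.784 CPM and Ms4a2 at 0.157 CPM, both in the CP CML range. These r values describe libraries that share depth and cell composition and rest on few reads for all genes but Kit.

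**Figure D3:**
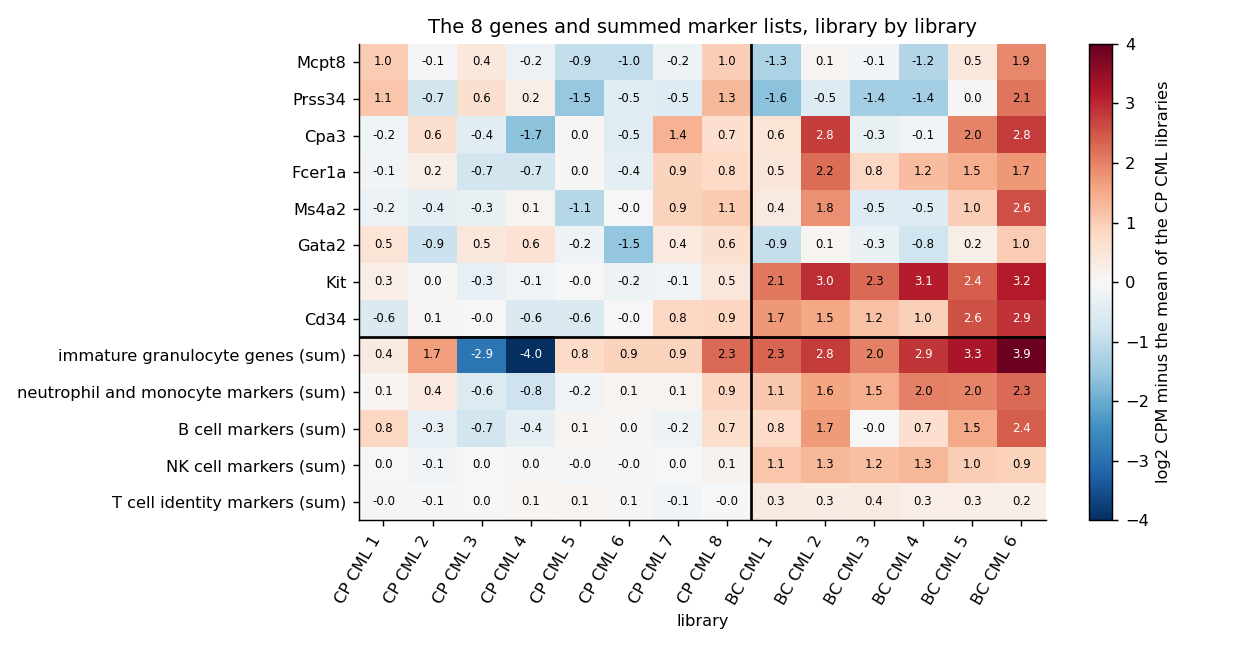
Level of each gene (log2 CPM, prior count 2) and of 5 summed marker lists (log2 of the summed CPM) in every library, as the difference from the mean of the CP CML libraries. Red is higher and blue is lower, and BC CML number 6 is the reddest column for most genes and for the immature granulocyte, neutrophil and B cell sums, while Kit is raised in all 6 BC CML libraries.

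Over all tested genes with an average of at least 1 CPM, those most like Kit were Zfp318 (r = 0.917), Cdyl2 (r = 0.911), Dennd3 (r = 0.884), Klra1 (r = 0.872) and Klrb1f (r = 0.863), of which the last encode NK receptors. Those most like Cpa3 were Hlf (r = 0.92), Serp1 (r = 0.884), Ankrd13a (r = 0.882), Ms4a3 (r = 0.871) and Serpinb1a (r = 0.853). Of these, Hlf is a transcription factor of stem cells and Ms4a3 a gene of granulocyte-monocyte progenitors. For Mcpt8 the highest were Mlh3 (r = 0.905), Pkib (r = 0.875), Nkiras2 (r = 0.869), Map3k20 (r = 0.855) and Gstm1 (r = 0.846), and for Prss34 they were Mcpt8, Mlh3 (r = 0.906), Lynx1 (r = 0.885), Hvcn1 (r = 0.874) and Slc25a45 (r = 0.87). For Gata2 they were Wwc2 (r = 0.874), Tm9sf2 (r = 0.866), Tk1 (r = 0.861), Tmem258 (r = 0.859) and 1810014B01Rik (r = 0.848). Each is the top of at least 11545 comparisons on 14 libraries and is given as a description.

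Many markers of other blood cells were higher in BC CML, as were Kit, Cpa3, Fcer1a and Cd34, whereas Mcpt8, Prss34, Ms4a2 and Gata2 were not called. Of all tested genes, 32.6% were called higher. All 11 immature granulocyte genes were higher in BC CML, and their summed level was 5.16 to 387 CPM in CP CML and 329 to 1240 CPM in BC CML, with number 6 at the top and numbers 5 and 4 after it. Elane, neutrophil elastase, rose by 3.14 (adjusted p = 0.00410). Of 16 neutrophil and monocyte markers, 13 were higher and none lower, with summed levels of 158 to 517 CPM and 602 to 1359 CPM. Of 10 B cell markers, 8 were higher, with sums of 67.1 to 202 CPM and 112 to 607 CPM, again highest in number 6. All 7 tested NK cell markers were higher (706 to 846 and 1482 to 1966 CPM), as were 6 of 9 dendritic cell markers (117 to 173 and 315 to 570 CPM), and Siglech and Batf3 were called higher without the filter (adjusted p = 1.93e-05 and 0.0329). The NK cell sum was highest in number 4 and lowest in number 6. Most of it came from Il2rb (means of 518 and 953 CPM), Klrd1 (115 and 297) and Eomes (77.5 and 257). Ccr9 (82.0 and 206 CPM) was a large part of the dendritic cell sum. The paper used Eomes and Ccr9 among its markers of CD8 T cell subsets, so these sums also hold genes of T cells. The part of other blood cells in the levels of Kit, Cpa3, Fcer1a and Cd34 was not tested.

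The eosinophil list, of which Ccr3 was the 1 gene of 10 that passed the filter, was divided. Ccr3, the eotaxin receptor, rose by 0.99 (adjusted p = 0.0112), and the summed level of the list was 6.10 to 14.01 CPM in CP CML and 8.81 to 29.15 CPM in BC CML. In the fit without the filter Siglecf (12 and 35 reads over the groups, adjusted p = 0.00330), Ear2 (4 and 18 reads, adjusted p = 0.00936) and Prg2 (27 and 74 reads, adjusted p = 0.0304) were also called higher and Il5ra (82 and 22 reads, adjusted p = 0.0340) was called lower. Prg3, Epx, Ear1 and Alox15 were not called, and Ear6 had no read. Of the 7 tested erythroid and megakaryocyte markers, 5 were not called and Itga2b, an integrin chain of megakaryocytes, fell by 0.66 (adjusted p = 0.00515), and of the 4 tested endothelial and stromal markers none was called by the quasi-likelihood test. Without the filter the megakaryocyte genes Pf4 (5 and 28 reads, adjusted p = 0.000968), Ppbp (12 and 44 reads, adjusted p = 0.00338), Gp1ba (6 and 21 reads, adjusted p = 0.0223) and Gp1bb (3 and 13 reads, adjusted p = 0.0423) were called higher. So were the collagen gene Col1a2 (9 and 58 reads, adjusted p = 0.000130) and the endothelial receptor Kdr (15 and 55 reads, adjusted p = 0.00345), while Cdh5, Tek, Egfl7, Cldn5 and Col3a1 were not called and Emcn had no read. Of the 13 tested T cell identity genes, 6 were higher, 2 were lower and 5 were not called: Cd8a rose by 0.87 (adjusted p = 2.38e-08), and Cd4 fell by 0.73 (adjusted p = 4.98e-06).

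**Figure D4:**
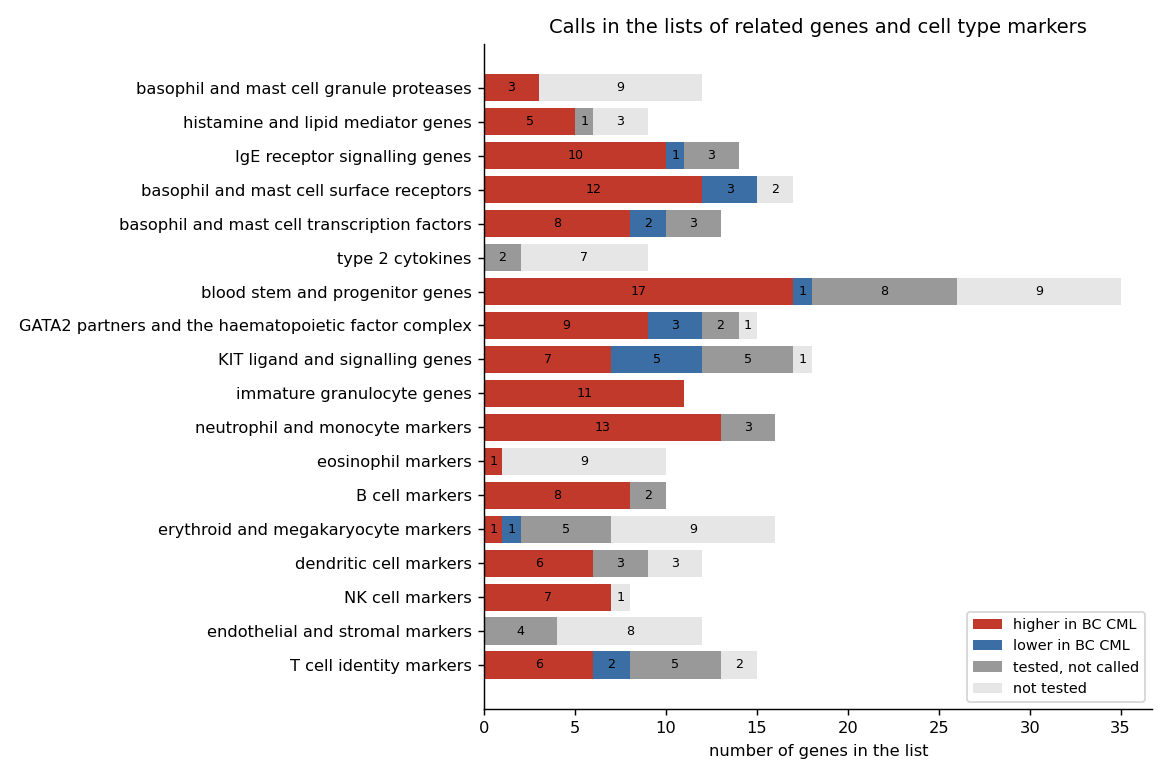
Number of genes in each list that were higher (red), lower (blue) or not called (grey) in BC CML against CP CML, or not tested (light grey). All 11 immature granulocyte genes were higher, whereas the KIT ligand and signalling genes were divided into 7 higher, 5 lower and 5 not called.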

How the data were processed

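The authors trimmed the reads with Trimmomatic and FASTP, mapped them to mm10 with STAR 2.6.0, counted them per gene with HTSeq 0.11.1, and deposited raw counts of 24091 genes without normalization. The gene annotation and strand setting are not given in the sources used here. Here genes were kept by filterByExpr (minimum count 10), normalised by TMM and tested with edgeR 4.0.16 (robust quasi-likelihood test, Benjamini-Hochberg adjustment over 12248 genes, threshold 0.05) in R 4.3.3, and CPM used the same factors. The SE was taken from the fold change and the F statistic. Fcer1a, Ms4a2 and Cd34 came from the same test on all 17599 genes with a read. The result was recomputed with edgeR's likelihood ratio test, with DESeq2 1.42.0, with RLE factors or none in place of TMM, without a filter or with one that asked for over 1 CPM in 6 libraries, with the mouse number as a block, and leaving out each library. All 8 genes were named, with up to 4 genes per list (the 2 largest rises and 2 largest falls among those called and averaging at least 1 CPM). Also named were defining markers at or near 0 and listed genes below the filter. Subunits (Fcer1g, Cd3e, Srgn), the antisense genes and abundant markers (Il2rb, Klrd1, Eomes, Ccr9) were named too. These were added after their values were seen. The genes and lists were chosen with earlier results of these data known. Pairs of libraries within a group gave a chi-square per degree of freedom of 3.08 to 23.1, so none was a repeat. The titles of the groups share numbers 1 to 6, but same-numbered mice are different animals. The 5p seed was searched in all 8 genes, and its matches outside Cd34 are not reported here.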

Additional observations from a re-analysis of the deposited data

Results flagged for a closer look

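Mcpt8 in BC CML number 6 (4.37 CPM, next highest 1.52 CPM) and Prss34 in the same library (2.93 CPM, next highest 0.595 CPM) stood far above the other 5 BC CML libraries, with a gap of 0.717 and 0.828 of the group's range. The total of BC CML number 2, 16145537 reads, was far below the next lowest of its group, 18319039 reads. These 3 came from 18 groups of libraries examined, of which chance marks about 1 in 20 (0.9 here). Number 6 was also highest for the immature granulocyte (1240 CPM) and B cell (607 CPM) sums.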

How the results depend on the processing

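Over 7 alternatives the number of genes called was 7313 to 8719, and 7711 to 7980 with a library left out. Of the 5 genes that passed the filter, 2 were called in each of these and 1 without BC CML number 2 (range 1 to 2), and without number 6 the pair was Kit and, in the other direction, Prss34. Kit, Fcer1a and Cd34 kept their direction and their call under every alternative that gave a value. Ms4a2 passed under the likelihood ratio test (1.32), DESeq2 (1.34) and the replicate block (1.60), and ranged from 0.65 to 1.57 with a library left out, when it passed in 4 of 14 fits (adjusted p = 0.0228 to 0.0471). Cpa3 ranged from 1.34 to 1.99. Prss34 turned under the likelihood ratio test (-0.00204) and the replicate block (-0.25) and ranged from -1.37 to 0.25, Mcpt8 from -0.46 to 0.46 and Gata2 from -0.53 to 0.0185. The cause was not tested. Same-numbered mice did not deviate together (r of -0.27 to 0.36, mean -0.02), so the numbers were not taken as pairs, and the block changed no other call. Prss34, Fcer1a, Ms4a2, Gata2 and Cd34 had no value when over 1 CPM was asked for in 6 libraries. Depth limits all genes but Kit: Fcer1a, Ms4a2, Gata2 and Cd34 had at most 43 reads in any library.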
